A study of Solanum lycopersicum with 21 samples.

Results

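FUL2-J is a complex of 2 MADS-domain transcription factors (TFs) of tomato: FUL2, a member of the AP1/FUL subfamily that acts in the floral transition and in the meristems of the inflorescence, and JOINTLESS (J), a relative of the Arabidopsis SVP protein that is known for its part in inflorescence meristem identity and in forming the joint of the flower stalk. MADS-domain TFs bind DNA as dimers at CArG-boxes, short elements with an A/T-rich core, and 2 dimers can join into a tetramer that holds a pair of such boxes. FUL2 cannot form a homodimer, so its binding to DNA was assayed together with a partner. The data described here are the regions that FUL2-J pulled out of genomic DNA in a DAP-seq experiment, with all 10449 narrow peaks of the FUL2-J list as members, out of 52995 peaks in the lists of 6 complexes.

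DAP-seq mixes TFs made without cells with fragmented genomic DNA, recovers the TFs by a tag and sequences the fragments they carry. FUL2, with a FLAG tag, and J, without one, were expressed in wheat germ extract and incubated with DNA from young leaf of wild-type tomato cv Moneyberg, in 3 libraries. The reference was input, with 3 libraries in the labels, for which the same extract was run with no plasmid and thus without TF. The other 5 complexes of the series (FUL2 with TM3 or J2, and the AP1/FUL-like TF MC with TM3, J2 or J) were assayed on the same kind of DNA and over the same input. The DNA was free of chromatin, so the sites are those FUL2-J can bind in vitro, outside the chromatin of a meristem cell. It was not amplified before binding, and the paper states that such a library keeps the DNA methylation of the leaf. The paper proposes this as a possible reason why some relevant sites were missed. A site where J bound without tagged FUL2 would not be recovered by the tag. The labels and the file agree in naming the complex, but a list of positions holds nothing that could check which proteins were present.

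Libraries were merged by the authors before the peaks were called, so each peak has a single value for the complex. The peak names refer to a merge of 2 alignments, and whether one of these already combined several libraries is not stated, so the number of libraries behind the FUL2-J reads, and behind the input reads, is not settled. No spread between libraries can be given for any value below, and none of the comparisons was tested against one. Intervals are 95% intervals that cover counting over peaks or reads alone. The fold enrichment is a linear ratio of the reads at the summit, the highest point of the peak, over the local background, and −log10 q is the strength of evidence that the peak caller attached to it, so that a higher value is a surer peak. Both were used as deposited. Solving the formulas of the peak caller gave the reads behind 97.0% of the peaks. On this scale 1 treatment read counted as 0.652 input reads, which means that the merged FUL2-J libraries were 1.53 times as deep as the input, and the lowest background a peak could have, common to large parts of the genome, was equal to 11.1 input reads.

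The FUL2-J peaks were of moderate and rather uniform strength. The median fold over input was 4.18 (4.18 to 4.22), with quartiles of 3.59 and 4.88, and 95% of the peaks lay below 6.37. A fold of at least 6 was reached by 768 peaks (7.35%, 6.87% to 7.87%), a fold of at least 8 by 83 peaks and a fold of at least 10 by 8 peaks. At the low end, 922 peaks (8.82%) had a fold under 3 and 67 peaks a fold under 2, with 1.39 as the lowest. The median −log10 q was 16.8 (16.6 to 17.1), with quartiles of 12.6 and 23.0. It was at least 10 at 9245 peaks (88.5%), at least 30 at 1229 peaks (11.8%) and at least 50 at 163 peaks (1.56%), and only 35 peaks were under 5. The weakest peak had a −log10 q of 4.07, so the list ends where a threshold of 0.0001 on q would place it. The paper states this threshold for P, whereas the lowest −log10 p that the peak caller gave in the list was 6.12.

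The reads behind these values show how much material a typical site rests on. A median of 91 reads of the FUL2-J libraries covered a summit, with quartiles of 78 and 111, and the range ran from 48 to 511. The local background had a median of 12.9 input reads, and 35.9% of the solved peaks (3636) sat at the common value of 11.1. Since reads come in whole numbers, many peaks share identical values. The 10449 peaks have only 2724 different values of −log10 q, and the most frequent, 14.7, occurs at 254 peaks. Of these, 123 had 78 reads and a fold of 4.29 and 118 had 77 reads and a fold of 4.24, all 241 over the common background, since the scaled pileup of both counts has the same whole-number part, which sets the p-value. Such peaks are tied in −log10 q, and their order in a ranking is arbitrary.

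Fold and −log10 q ranked the peaks alike but not identically, with a Spearman correlation of 0.840 across the 10449 peaks, which share libraries and are not independent. Of the 1036 placed peaks in the strongest 10% by −log10 q, 779 were also in the strongest 10% by fold. The difference lay in the background: at the same fold a summit over a higher background holds more reads and gets a higher −log10 q. The rank correlation of background with fold was −0.41. As the fold is a ratio over the background, a negative value is in part built in. In the strongest 10% by −log10 q, 37 peaks had a fold below the median of the placed peaks, and their background had a median of 49.5 input reads and was never below 26. The clearest case was a peak on chromosome 11, from 46538593 to 46539079, with 436 reads (396 to 479) over a background of 69 input reads. Its −log10 q of 77.3 was the highest of its chromosome, while its fold of 4.08 ranked 5735th among the placed peaks.

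**Figure D1:**
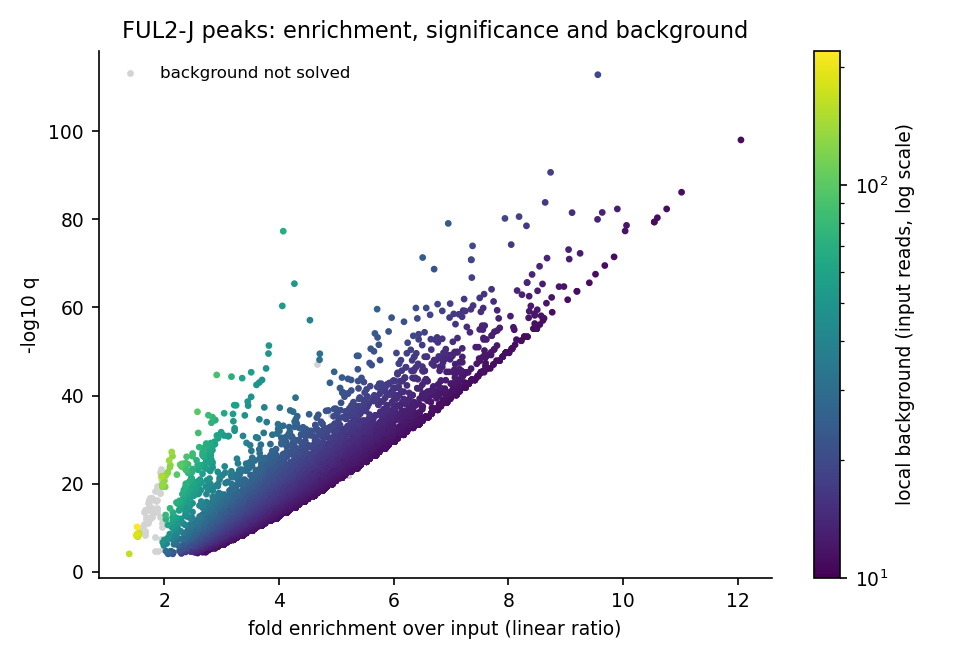
Fold enrichment over input (x axis, linear ratio) against −log10 q (y axis) for the 10449 FUL2-J peaks, 1 point per peak, coloured by the local background in input reads on a log scale, with peaks whose background could not be solved in grey. The lower edge of the cloud is formed by peaks at the common background of 11.1 input reads, and peaks of low fold and high −log10 q lie above it at higher backgrounds.

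A raised background marked a small part of the list. It was over 25 input reads at 542 solved peaks (5.35%), over 50 at 166 peaks (1.64%) and over 100 at 26 peaks. These are minimum counts, since the background of the 318 unsolved peaks is not known, and 41 of those were on the unplaced sequence. The 166 peaks with a background over 50 had a median fold of 2.50, a median −log10 q of 22.8 and a median of 266 reads, so they were shallow in ratio but deeply covered in both FUL2-J and input. Of these, 38 lay on the unplaced sequence and 35 in a stretch of 2 Mb of chromosome 1 that is described with the clusters. The unplaced sequence, an artificial chromosome of contigs that the assembly could not position, held 87 peaks (0.833% of the list) with a median fold of 1.93. There, 65 of the 87 peaks had a fold under 2.2, out of 108 such peaks in the whole list. At the 46 peaks that could be solved the median background was 123 input reads, 11.05 times the common value. The other 41 were not solved, so this median may not hold for all 87. Its strongest peak, from 6417791 to 6418141, had a −log10 q of 36.3 at a fold of 2.58, with 402 reads over a background of 101. The next, at 3910213 to 3910560 and 3940069 to 3940385, had −log10 q values of 35.5 and 35.1 and folds of 2.77 and 2.84. The authors' annotation places Solyc00g500166 nearest to the first and Solyc11g063573 nearest to the other pair, all as distal intergenic. The part of the raised background in these low folds was not tested.

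Peaks were narrow, and stronger peaks were wider. The median width was 332 bp (331 to 334), with quartiles of 296 and 381 bp. The narrowest peaks were 269 bp, a floor that 287 peaks shared, and 395 peaks (3.78%) were wider than 500 bp, 134 wider than 600 bp and 19 wider than 800 bp. In the 10 deciles of the list ordered by −log10 q, the median width was 305 bp in the weakest, 300 bp in each of the next 2, and then higher at every step up to the 413 bp of the strongest. The rank correlation of width was 0.492 with −log10 q and 0.404 with fold. Width and strength are read from the same coverage, so a positive value may in part be built in. In all, the peaks covered 3.65 Mb, and those on the chromosomes took up 0.439% of the placed sequence.

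The summit lay near the middle of the peak. Its median distance from the centre was 20 bp (19.5 to 20.5), or 5.90% of the width (5.74% to 6.03%). In 7525 peaks (72.0%) it fell in the central 20% of the width, and in 152 peaks (1.45%) in the outermost 20% on either side. It lay to the right of the centre, towards higher coordinates, in 5029 peaks (48.1%, 47.2% to 49.1%). Summits exactly at the centre were not counted as right of it, so the remaining peaks are not all to the left. The stronger the peak, the more central was its summit: the median distance was 38.5 bp in the weakest decile by −log10 q, 28.5 bp in the next, 19.5 bp in the fifth and 13.5 bp in the strongest. With a median of 143 reads at the summit in the strongest decile, against 67 reads in the weakest, the place of the strongest summits was also read from more material.

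**Figure D2:**
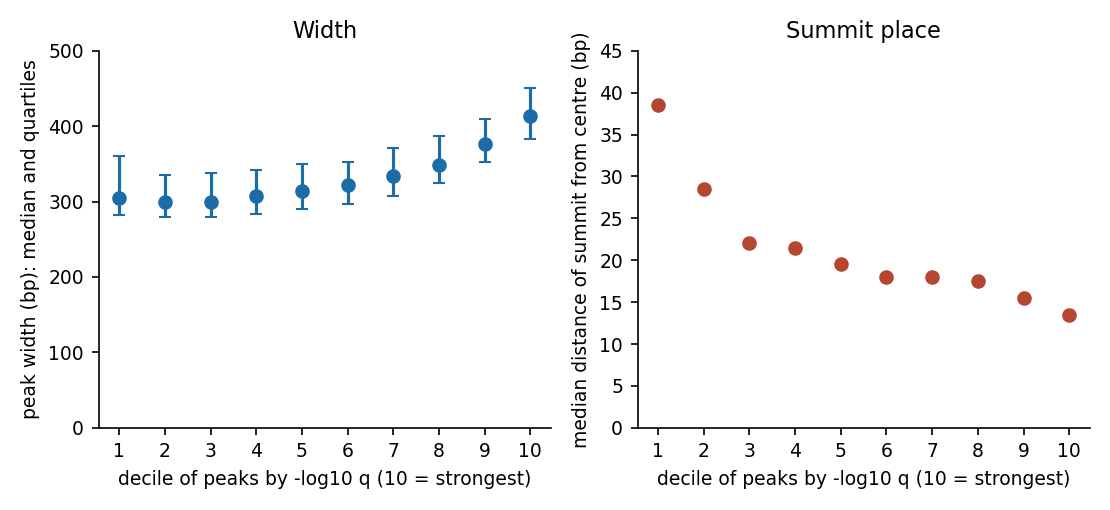
Median peak width with quartiles in bp (left) and median distance of the summit from the peak centre in bp (right) for the 10 deciles of the FUL2-J list in order of −log10 q, 1 point per decile. Width reaches 413 bp and the summit distance falls to 13.5 bp in the strongest decile.

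The widest peaks did not follow this order. Between 401 and 450 bp the summit lay a median of 17 bp from the centre, but between 501 and 600 bp (261 peaks) it was 71.5 bp away, between 601 and 800 bp (115 peaks) 142 bp and above 800 bp (19 peaks) 212 bp. The median −log10 q, which was 26.1 among peaks of 401 to 450 bp, was 21.2 among those of 501 to 600 bp and 17.9 among those above 800 bp. The widest peak of the list, on chromosome 7 from 47838649 to 47839595, was 947 bp wide with its summit 239 bp from the left edge, a fold of 3.97 and a −log10 q of 31.4. The next was 923 bp wide, on chromosome 12 from 69890503 to 69891425, with its summit 742 bp from the left edge and a fold of 4.72. The next after it, 901 bp wide on chromosome 11 from 28428737 to 28429637, had its summit 662 bp from the left edge and a fold of 5.80. In all of these the summit stood well to one side. Whether such a peak joins neighbouring sites was not tested, since the coverage along the peak was not used here.

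The 10 strongest peaks by −log10 q stood far above the body of the list. Their folds were between 8.19 and 12.1, their −log10 q between 80.6 and 113, and they rested on 198 to 301 reads. They were 410 to 562 bp wide with a summit at most 31.5 bp from the centre, and they lay on chromosomes 1, 3, 5, 6, 7 and 9. The closest to a chromosome end was 14.7 Mb away, and 3 of them had a further FUL2-J peak within 5 kb.

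The strongest peak lay on chromosome 1 from 69878597 to 69879067, where 301 reads (268 to 337) stood over a background of 19.6 input reads. Its −log10 q was 113 and its fold 9.56, the 13th highest on the chromosomes. The authors' annotation puts it in the promoter class of Solyc01g065500, and by the coordinates given there the summit falls inside the span of that gene. All of the other 5 lists had a peak at this site, with folds of 8.32 (MC-TM3), 8.23 (MC-J2), 7.90 (MC-J), 7.72 (FUL2-J2) and 7.16 (FUL2-TM3). The lists share their input libraries, so these values are not independent of each other.

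The highest fold of the list, 12.1, was that of a peak on chromosome 5 from 49799425 to 49799834, with 222 reads (194 to 253) over the common background. It was second by −log10 q, at 98.0. In the other lists the folds at this site were 11.2 (MC-TM3), 9.55 (FUL2-TM3), 9.51 (MC-J), 8.77 (FUL2-J2) and 7.63 (MC-J2). The third by −log10 q, at 90.7, lay on chromosome 1 from 40514444 to 40514950 with a fold of 8.74 and 253 reads. It was classed as distal intergenic, with Solyc01g028930 as the nearest gene in the authors' annotation.

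Chromosome 7 held 3 of the 10 strongest peaks. One, from 45898241 to 45898802, had a fold of 11.02 and a −log10 q of 86.2, and another, from 47172265 to 47172718, a fold of 10.8 and a −log10 q of 82.4. Only the chromosome 5 peak had a higher fold than these. At both, the FUL2-J fold was the highest of the 6 lists. The folds of the other lists at these sites were 8.29 and 8.39 (MC-J), 7.24 and 5.73 (MC-TM3) and 6.17 and 7.34 (FUL2-J2). They were lower still in MC-J2 (4.92 and 5.95, the latter above MC-TM3) and in FUL2-TM3 (4.54 and 4.20). The third on chromosome 7, from 37148122 to 37148631, had a fold of 9.64 for FUL2-J and 10.6 for MC-TM3. Peaks on chromosome 5 from 52478626 to 52479175 and on chromosome 9 from 56252087 to 56252589, with FUL2-J folds of 9.11 and 8.19, likewise had higher folds in the MC-TM3 list, at 10.3 and 9.33.

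On chromosome 3 a pair of strong sites lay side by side. The peak from 33859713 to 33860140 had a fold of 8.64 and a −log10 q of 83.8, and within the same 4.57 kb stretch a second peak had a fold of 8.23 and a −log10 q of 52.4. This was the pair with the highest summed −log10 q of any cluster of 2 peaks, 136.

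At 1 of the 10 strongest sites a peak was called in MC-J but in none of the other 4 lists. This peak, on chromosome 6 from 19834205 to 19834656, had a fold of 9.90, a −log10 q of 82.4 and 211 reads (183 to 241) in FUL2-J, and a fold of 7.17 and a −log10 q of 47.0 in MC-J. The same held for 2 more of the 10 peaks with the highest folds. These lay on chromosome 4 from 26464370 to 26464825, with folds of 10.55 in FUL2-J and 8.29 in MC-J, and on chromosome 6 from 20008296 to 20008765, with folds of 10.04 and 8.31. The remaining 7 of those 10 had a peak in each of the 6 lists. These sites were picked out after their values were seen, and the absence of a called peak gives no level for the other complexes. The share of all 10449 FUL2-J peaks with this pattern is not given here. Whether it is more frequent among the strongest sites therefore cannot be said. The lists with J2 are also shorter, at 4940 (FUL2-J2) and 4677 peaks (MC-J2).

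Each chromosome had at least 1 strong site, and in folds and −log10 q the chromosomes were much alike. The median fold ranged from 4.13 on chromosome 11 to 4.26 on chromosome 5, and the median −log10 q from 16.6 to 17.3. The strongest peak of a chromosome had a −log10 q between 72.3, on chromosome 10 from 39954667 to 39955247, and the 113 of chromosome 1. On chromosome 8 it was a peak from 15955804 to 15956258 with a fold of 10.6 and a −log10 q of 80.4, and on chromosome 12 a peak from 33836679 to 33837126 with a fold of 10.55 and a −log10 q of 79.4, values that the chromosome 4 peak named above matched exactly, with 194 reads each. Only on chromosome 2 was the strongest peak within 5 Mb of an end: it lay from 2774221 to 2774836, with a fold of 6.95, a −log10 q of 79.1 and 265 reads over a background of 24 input reads.

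Among peaks on chromosome 1 that the authors' annotation classed as promoter, the 5 with the highest −log10 q were at Solyc01g065500, named above, and at Solyc01g100140, Solyc01g016660, Solyc01g058360 and Solyc01g038234. The peak at Solyc01g100140, from 88028580 to 88028981, had a fold of 7.15 and a −log10 q of 43.5, and that at Solyc01g016660, from 24506090 to 24506522, a fold of 6.59 and a −log10 q of 43.3. The peak at Solyc01g058360, from 64933936 to 64934290, had a fold of 7.31 and a −log10 q of 42.7. Solyc01g038234 differed from these, with a fold of 3.46, a −log10 q of 37.7 and 261 reads over a background of 48.4 input reads, and belongs to the long run of peaks on that chromosome. After the first, the promoter-class peaks of chromosome 1 were thus far weaker by −log10 q. The functions of these genes were not looked up, as the gene table at hand carries no identifiers of this form.

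Peaks were present along every chromosome, at 12.1 per Mb on chromosome 1, 10.9 per Mb on chromosome 6 and up to 13.4 per Mb on chromosome 12. Tomato chromosomes have gene-rich distal arms around a large block of repeat-rich pericentromeric heterochromatin. Within 5 Mb of a chromosome end, FUL2-J had 1005 peaks, or 8.38 per Mb, against 13.3 per Mb in the rest of the chromosomes. The ratio was 0.630 (0.590 to 0.673), so the outer bands held 9.70% of the placed peaks on 14.6% of the sequence. Away from the ends the density was flat at first and then climbed. It was 9.75 per Mb in the outermost 0.5 Mb, 8.01 per Mb from 2 to 5 Mb, 8.40 per Mb from 5 to 10 Mb, 10.9 per Mb from 10 to 15 Mb, 14.1 per Mb from 20 to 25 Mb and 17.3 per Mb beyond 30 Mb. Chromosomes 2, 6 and 11, at 54.7, 52.2 and 57.3 Mb, are too short to have sequence in this last band. The median background of the peaks was 12 input reads within 5 Mb of an end and 12.9 in the rest, and its part in this gradient was not tested.

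**Figure D3:**
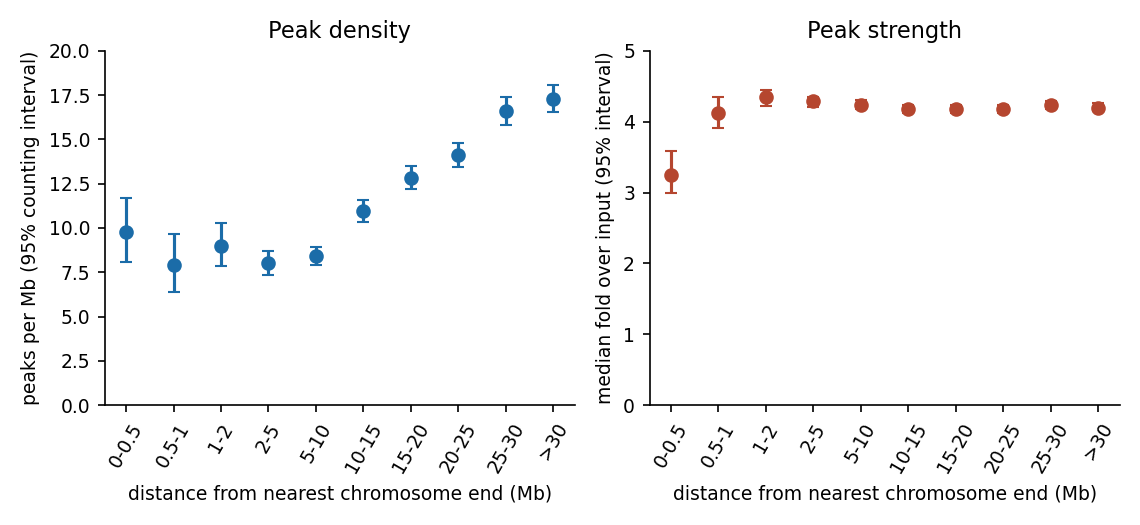
Density of FUL2-J peaks per Mb (left, with 95% counting intervals) and their median fold over input (right, with 95% intervals of the median) by distance from the nearest chromosome end in Mb, pooled over the 12 chromosomes. Density is 8.01 per Mb between 2 and 5 Mb and 17.3 per Mb beyond 30 Mb, whereas the median fold differs from about 4.2 mainly in the outermost 0.5 Mb. Chromosomes 2, 6 and 11 have no sequence beyond 30 Mb from an end.

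The fold did not follow the density, while −log10 q was somewhat lower near the ends. The median fold was 4.20 within 5 Mb of an end and 4.20 in the rest, and the median −log10 q 15.95 and 16.9. The outermost 0.5 Mb stood apart, with 117 peaks at a median fold of 3.24 (2.995 to 3.59) and a median background of 16.7 input reads, against a fold of 4.13 and a background of 12 input reads between 0.5 and 1 Mb. From 1 Mb inwards the median fold stayed between 4.17 and 4.34. Of the strongest 10% of peaks by −log10 q, 7.63% (6.16% to 9.40%) lay within 5 Mb of an end, against 9.93% (9.34% to 10.6%) of all other placed peaks. The 2 intervals overlap only narrowly, and the difference was not tested. By distance, peaks of this strength made up 3.42% (1.34% to 8.46%) of the outermost 0.5 Mb, 5.26% (2.27% to 11.7%) from 0.5 to 1 Mb, 9.03% (7.41% to 10.96%) from 5 to 10 Mb and 11.8% (10.4% to 13.2%) beyond 30 Mb, with 9.61% to 10.4% in the bands from 10 to 30 Mb.

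The lower density near the ends was seen at 23 of the 24 chromosome ends when each was set against the part between the outer bands of its own chromosome. The exception was the start of chromosome 2, with 17.4 peaks per Mb in the first 5 Mb, against 13.1 per Mb between the bands. The short arm of tomato chromosome 2 is known as largely heterochromatic and as the carrier of the nucleolus organiser. All other outer bands had between 4 per Mb, at the start of chromosome 1, and 12.2 per Mb, at the start of chromosome 9, and the parts between had 11.3 to 14.5 per Mb. On chromosome 1 the ends together had 0.395 times the density of the part between, the lowest of the 12 chromosomes, and on chromosome 2 0.983 times, the highest. On all 12 chromosomes the densest of 10 equal parts of the length was one of parts 3 to 8, at 17.3 to 24.3 peaks per Mb. The emptiest part had 3.84 to 7.65 peaks per Mb.

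By the same measure, the FUL2-J ratio of 0.630 stood beside ratios of 0.601 (MC-J), 0.711 (MC-J2), 0.735 (FUL2-J2), 1.46 (MC-TM3) and 6.36 (FUL2-TM3). FUL2-J was thus on the side of the other lists with J or J2, with fewer peaks near the ends than in the interior, and apart from both lists with TM3. There is 1 list per complex, so these differences have no error of their own and were not tested.

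In windows of 1 Mb, the number of FUL2-J peaks had a mean of 12.6 and a median of 12, with quartiles of 7.50 and 17, over 819 windows. Its variance was 40.4, where independent placement at 1 density would make it equal to the mean. There were 34 windows with 25 peaks or more and 65 with 4 or fewer. The densest, with 39 peaks, was on chromosome 1 between 39 and 40 Mb, and the next, with 35 peaks, on chromosome 12 between 25 and 26 Mb. In 5 windows a single peak was found: the first Mb of chromosome 1, its stretch between 5 and 6 Mb, chromosome 2 between 34 and 35 Mb, chromosome 6 between 12 and 13 Mb and chromosome 11 between 49 and 50 Mb. The longest stretch without a summit ran over 1.26 Mb of chromosome 6, from 12035336 to 13294794.

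Neighbouring summits were closer than an even density would place them. The median distance to the next summit was 44.9 kb (43.2 to 46.4), where independent placement at the mean density gives 55.1 kb. Of 10350 distances, 927 (8.96%, 8.42% to 9.52%) were at most 5 kb and 5527 (53.4%) at most 50 kb, against 6.09% and 46.7% for independent placement. Long distances were also more frequent, with 412 (3.98%) over 300 kb, against 2.30%. Up to 1 kb the order was the opposite, with 93 distances (0.899%) against 1.25%, but this shortage lay at the shortest distances. Only 1 distance was at most 0.5 kb, against 0.627% for independent placement, and the shortest was 494 bp. No peak was narrower than 269 bp, and the part of peak width in this shortage was not tested.

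**Figure D4:**
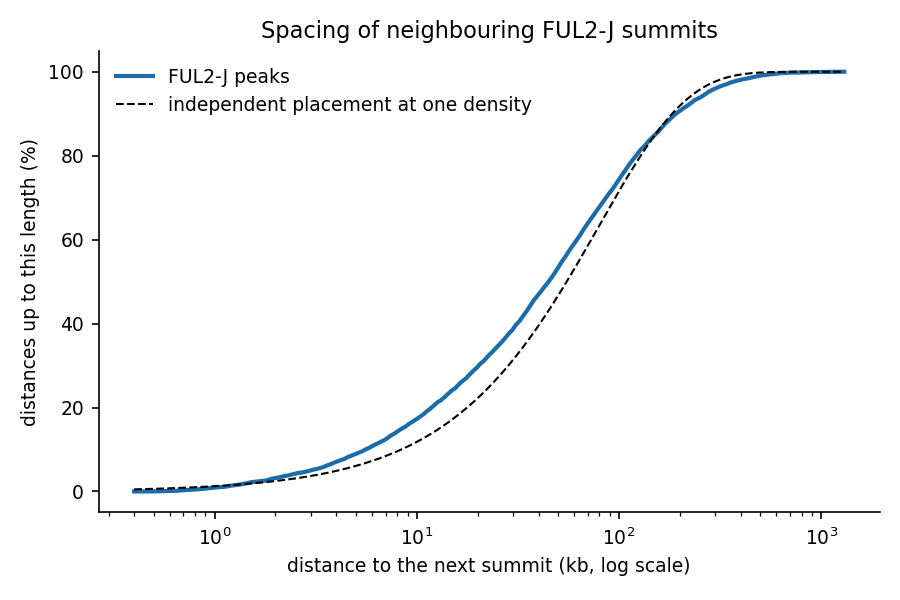
Share of distances between neighbouring FUL2-J summits (y axis, %) that are up to a given length (x axis, kb, log scale), for the 10350 distances of the list and for independent placement at the mean density of the 12 chromosomes. The solid line lies above the dashed one at 5 kb (8.96% against 6.09%) and below it at 300 kb.

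Summits at most 5 kb from the next were joined into clusters. In all, 1724 placed peaks (16.6%, 15.9% to 17.4%) were in 797 clusters, of which 701 were pairs, 79 had 3 peaks, 12 had 4, 4 had 5 and 1 had 17. Independent placement at 1 density would put 11.8% of the peaks in clusters, and placement at the density of each peak's own 1 Mb window 13.6%. At this joining distance the observed share was above both.

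Peaks in clusters and single peaks had much the same strength. The median fold was 4.22 (4.14 to 4.27) in clusters and 4.20 (4.18 to 4.24) outside, the median −log10 q 16.9 and 16.8, and the median width 336 and 332 bp. Within the 701 pairs the stronger peak had a median fold of 4.74 and the weaker one of 3.72. The ratio of the 2 folds had a median of 1.25, and it was 1.5 or more in 162 pairs (23.1%). Beside the 16.6% of FUL2-J, the share of peaks in clusters was 7.997% (MC-J2), 9.28% (FUL2-J2), 17.2% (MC-J), 23.1% (MC-TM3) and 53.0% (FUL2-TM3). At equal crowding this share is larger in a longer list, and the lists differ in length.

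The largest cluster was a regular array. On chromosome 8, from 67330092 to 67354232, 17 FUL2-J peaks followed each other over 24.1 kb, 1.53 Mb from the end of the chromosome. The 16 distances between their summits were all between 1456 and 1518 bp, with a mean of 1490 bp and an SD of 24.4 bp over the 16 distances. Whether these peaks lie in near-identical copies, whose reads cannot be told apart, was not tested, and the treatment of such reads in the mapping is not given in the sources used here, so the 17 peaks may not be separate bound sites. The folds were between 3.42 and 6.10 with a median of 4.46, the −log10 q between 15.7 and 34.8, and 103 to 151 reads covered each summit over backgrounds of 12 to 26 input reads. This cluster also had the highest summed −log10 q, 453. The 3 lowest folds, 3.42, 3.43 and 3.55, were at peaks with a background of 20 input reads or more, and the highest, 6.10, at the peak with the lowest background, 12 input reads, so the folds varied more than the reads did. Over the same stretch FUL2-J had 17 peaks, FUL2-J2 10 peaks, MC-J 13, MC-J2 12, MC-TM3 3 and FUL2-TM3 1.

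A longer run made up the densest window. On chromosome 1, 40 peaks with a background over 40 input reads lay between 38714374 and 39775955, a stretch of 1062 kb, and 37 of the 39 peaks of the densest window belonged to them. Their background was 48.2 to 79 input reads with a median of 59, which is 5.32 times the common value, their folds were 2.03 to 3.46 with a median of 2.71, and 173 to 280 reads covered each summit. Of the 39 distances between successive summits, 20 were between 10865 and 11075 bp, 3 between 8905 and 8940 bp, and of the 16 longer ones 11 were within 0.1 step of a whole multiple of the median step of 11004.5 bp, a tolerance chosen after the run was seen that covers 20% of all lengths. The other 5 included the longest, 247 kb or 22.4 steps. Many of the peaks thus came at steps of about 11 kb, with some steps empty. In the authors' annotation the genes nearest to these peaks carried the identifiers Solyc01g038230, Solyc01g038233, Solyc01g038234 and Solyc01g038236. Over this stretch MC-J had 30 peaks with a median fold of 2.56, against the 40 peaks with a median fold of 2.71 of FUL2-J, whereas FUL2-J2, FUL2-TM3, MC-J2 and MC-TM3 had no peak. The same limit on reads from near-identical copies holds for these peaks.

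**Figure D5:**
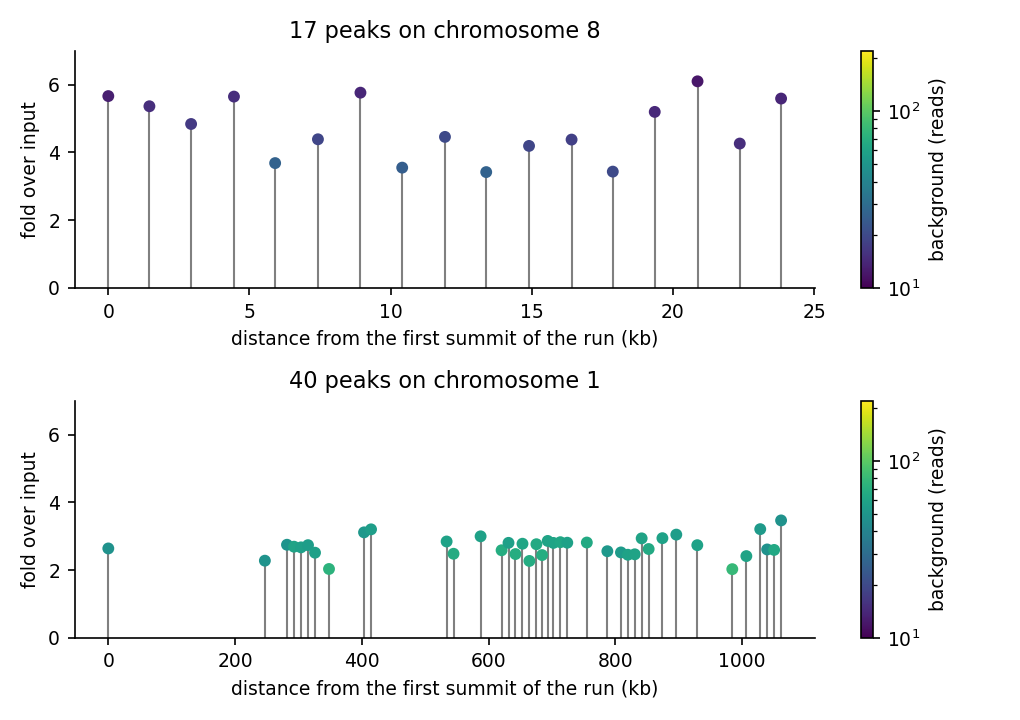
Fold over input (y axis, linear ratio) of the 17 peaks of the chromosome 8 array (top) and of the 40 peaks of the chromosome 1 run (bottom) by distance in kb from the first summit of the run, 1 stem per peak, coloured by background in input reads on a log scale. The steps are 1456 to 1518 bp on chromosome 8, and on chromosome 1 often about 11 kb or multiples of it at 48.2 to 79 background reads.

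Such regularity was rare in the list. Runs of at least 4 peaks whose steps were at most 20 kb and within 5% of the median step of the run numbered 7, with 44 different peaks in all, under a rule that was chosen after the arrays were seen. Of these runs, 5 were parts of the chromosome 1 run, where 2 of them share a peak, and 1 was the array on chromosome 8. The other was on chromosome 6, from 16898845 to 16909584, where 4 peaks were spaced by 3431 to 3462 bp, with folds of 4.63 to 5.98 over a median background of 13 input reads. Together with 1 more peak before it, it forms 1 of the 4 clusters of 5 peaks. Another of these, on chromosome 2 from 25456355 to 25465003, held folds of 3.43 to 5.81. On chromosome 3 the cluster from 23579555 to 23589123 had folds of 3.33 to 5.42, and the one from 29535712 to 29541568 folds of only 2.25 to 3.31, over a median background of 32 input reads.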

How the data were processed

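Reads of DAP-seq libraries (per the labels 3 for FUL2-J and 3 for input, of 21 in the series) were trimmed by the authors with Trim Galore, mapped to the Moneyberg genome with HISAT2, merged per complex and submitted to MACS2 at a threshold of 0.0001. Tool versions, mapping options and the way libraries were combined are not given in the sources used here. The deposited list has, for each peak, a start, an end and a summit offset, a fold (a ratio, with a pseudocount of 1), and −log10 p and −log10 q of the authors' peak caller. The deposited score, at 10435 of 10449 peaks 10 times −log10 q without its decimals, was not used. Depth was recovered by solving the formulas for fold and p. A pileup counted as whole within 0.1 reads. Among peaks at the common background, 1373 pileups held out of the estimate were whole in 100% of cases. Since many peaks share identical values, held-out pileups often repeat values used in the estimate, so this check is not independent of it. Other backgrounds were not covered by this check. Unsolved were 318 peaks (median fold 4.91), 41 of them on the unplaced sequence. These were left out of values on reads and background.

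Positions are 1-based. The end of the last peak of any list stood for the length of a chromosome. Medians have binomial, shares Wilson, densities exact Poisson and density ratios log-normal intervals, all at 95%. Peaks are not replicates, so no test was made across them. Peaks named singly were the 10 highest by −log10 q, the 3 highest by fold, the strongest per chromosome, the 3 widest, the largest clusters, the extreme windows and the 3 strongest unplaced peaks. Further peaks were named after their values were seen. The members and lists were chosen with earlier results of these data known. Gene identifiers come from the readable part of the authors' annotation. The Moneyberg sequence was not used here, so no sequence is printed and no motif was searched. Python 3.11.15, numpy 2.4.6, pandas 2.3.3, scipy 1.17.1 and matplotlib 3.10.9 were used, and the scripts were tested on simulated data.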

Additional observations from a re-analysis of the deposited data

How the results depend on the processing

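No paired analysis was possible because libraries were merged before peaks were called, and for the same reason no library could be left out. Of 25 alternatives, 12 left their value within its interval, or a count within 1.5 times. Requiring a −log10 q of at least 10 gave 9245 peaks, a median fold of 4.32, a median width of 336 bp, a summit distance of 5.48% of the width and 14.8% of peaks in clusters. Requiring a fold of at least 3 gave a median −log10 q of 17.3, and leaving out peaks of 500 bp or wider a summit distance of 5.70%. The share in clusters followed the joining distance, with 6.09% (5.65% to 6.57%) at 2 kb and 30.7% at 10 kb, where even placement gives 4.91% and 22.2%. Placement at the density of each peak's own 1 Mb window gives 5.71% and 25.1%. At 2 kb this value lies inside the interval of the observed share, so an excess over the local density is not shown there. The density ratio near the ends was 0.696 with a band of 1 Mb and 0.587 with 10 Mb. The rank correlation of fold and −log10 q was 0.852 without the unplaced sequence and 0.9995 at the common background, where the reads alone set both by construction, and that of width was 0.404 with fold in place of −log10 q. Added after seeing the data, leaving out the runs on chromosomes 1 and 8 gave 16.6% in clusters, and leaving out chromosome 2 a density ratio of 0.599. Every density ratio tried was below 1. The share of peaks overlapped in another list was not run, as the lists share their input. Depth limits the list to summits with at least 48 reads, so weaker sites are not detectable here. The part of DNA methylation in sites that are absent from the list was not tested.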
